A study of Schizophyllum commune with 6 samples.

Results

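The genes described here were low in strain 12-43 of the split-gill mushroom Schizophyllum commune and high in both the other strains of the study. They were chosen on their RPKM, that is reads scaled by the coding length of a gene model and by the depth of the library. All 4 libraries of the other strains had to hold 10 RPKM or more, and the lowest of these 4 values had to be at least 4 times the higher of the 12-43 values. The other strains' means, each plus 0.5 RPKM, had to lie within 2-fold of each other, and models at 0 in both 12-43 libraries were left out. The rule found 123 of 14652 gene models. They were 1.71% of the 7194 models at 10 RPKM or more in those 4 libraries, and 2.06% of the 5973 of these within the 2-fold window.

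The study sequenced mRNA of mycelium from 3 groups with 2 libraries each. Strain 12-43 was a wild type of mating type A3,5;B2,2. The dhc2 group was a knockout of dynein heavy chain gene 2 and carried the same mating type, A3,5;B2,2. Strain E6 was a wild type of mating type A4,6;B2,1. All strains grew at 28 °C on CYM plates, the last 3 days on a cellophane sheet. The labels call the samples monokaryons, whereas the growth protocol speaks of mycelium of a mating interaction. The strain in which dhc2 was deleted is named only by its mating type, and the sources used here do not tie dhc2 to a model identifier, so the deletion was not checked in the reads. Nothing says that the libraries of a group came from separate cultures, so each p-value measures the spread between libraries, which may be technical.

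A monokaryon of this fungus carries a single kind of nucleus in its cells, and compatible monokaryons fuse and exchange nuclei to form a dikaryon, from which the fruiting bodies grow. Dynein is the motor that moves nuclei along microtubules in many filamentous fungi. Schizophyllum commune is known for high sequence diversity between strains.

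Reads per library, solved from the steps of the RPKM values, came to 8709341 to 14337826. At these depths 3 reads on a model of 1 kb equal 0.209 to 0.342 RPKM. In 12-43 replicate 1 and both dhc2 libraries the deposited quality reports list the 5-base sequence GAAGA at 3.00 to 3.07 times its expected frequency, and in the other 3 libraries they do not list it. The 12-43 libraries differ in this listing. The rule required members to be low in both, so nothing about the listing is read from that. The hydrophobin SC3, a coat protein of aerial hyphae of monokaryons, was present in every library, at 10907 and 13868 RPKM in 12-43, 4842 and 4704 in dhc2 and 21811 and 23009 in E6. SC4, a dikaryon hydrophobin, stood at 251 and 509 RPKM in 12-43 against 3.23 to 8.08 elsewhere, and the other such markers were SC1 at 29.8 and 57.7 against 7.57 to 12.7 and SC6 at 2.68 and 3.47 against 3.49 to 5.04. The receptor gene bbr2 held 18.9 and 12.5 RPKM in 12-43, 26.5 and 27.8 in dhc2 and 0.0574 and 0.122 in E6, and bar3 held 7.94 to 20.3 in the 6 libraries. These markers differ between the strains, mostly in other patterns than the members. SC4 and SC1 were higher in 12-43 than in both other strains, and SC6 was slightly lower. For SC3, bbr2 and bar3, 12-43 lay between dhc2 and E6. The part of these markers in the members' values was not tested.

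As the rule compared 12-43 with the other strains, that difference is described without a test. The median member held 4.56 RPKM in 12-43, 40.5 in dhc2 and 39.8 in E6, taking the mean of each group. Among all 7194 models at 10 RPKM or more in the dhc2 and E6 libraries the corresponding medians were 47.1, 48.7 and 44.7. The members were thus about as high as other such models in dhc2 and E6. Their means over these 4 libraries ran from 11.1 to 2974 RPKM, 25 members had 100 RPKM or more in all 4, and 25 had a mean under 20. The ratio of the lowest dhc2 or E6 value to the higher 12-43 value had a median of 6.48 and ran from 4.04 to 508. All 123 members also passed limma at an adjusted p under 0.05 with a change of 2-fold or more against each strain. Of 12484 models tested 802 did so, which is 6.42%, and 451 (3.61%) were higher in 12-43 by the same measure. Without regard to size, 54.5% of the tested models passed between dhc2 and 12-43 and 28.3% passed as lower in 12-43. Between E6 and 12-43 these shares were 59.3% and 30.9%. Nothing is read from the members' count, because the rule used the same values.

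**Figure D1:**
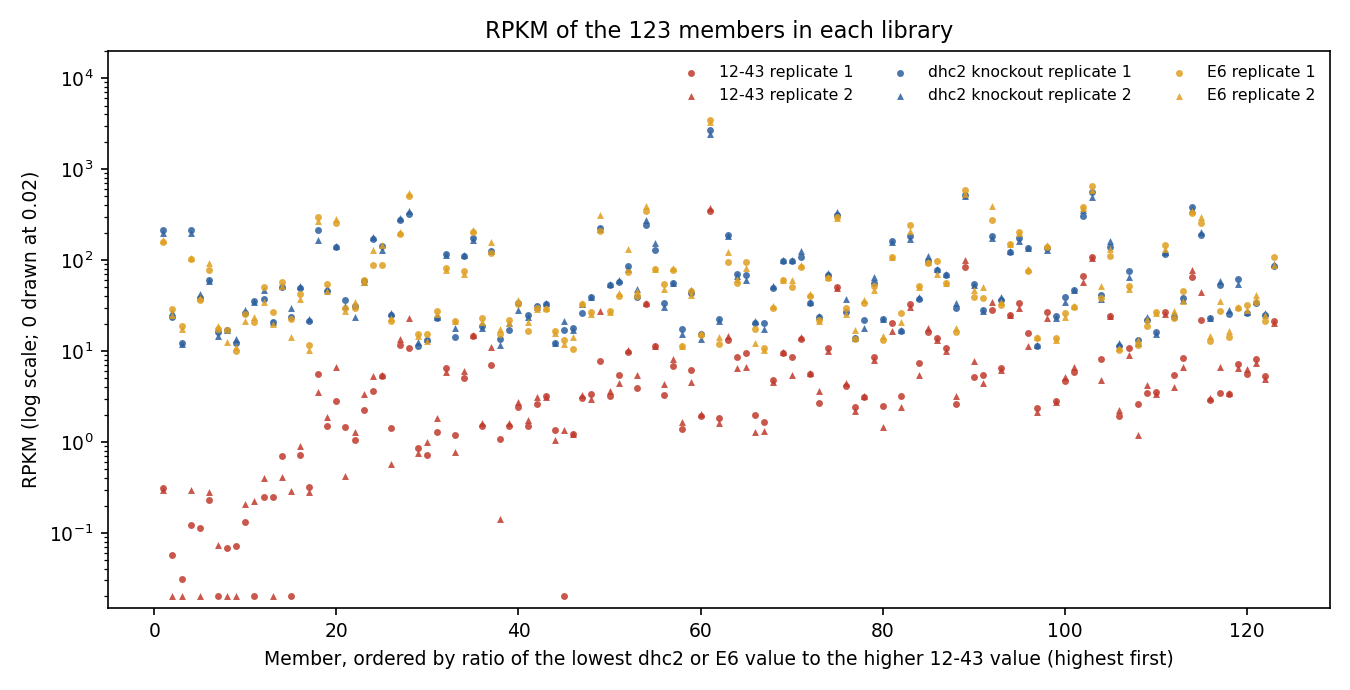
RPKM (log scale) of the 123 members in each of the 6 libraries, ordered by the ratio of the lowest dhc2 or E6 value to the higher 12-43 value. The 12-43 points lie at least 4.04-fold under the others in every member, down to 0, drawn at 0.02, in 10 members with no read in one 12-43 library.

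The members covered a wider range in 12-43 than in dhc2 and E6, where the rule set a floor. Their 12-43 means ran from 0.0157 to 359 RPKM. At one end, 19 members lay below 1 RPKM in both 12-43 libraries, 12 had at most 3 reads in each, and 10 of the 123 had no read in one of them. At the other end, 26 members held 10 RPKM or more in both 12-43 libraries and so were clearly read in that strain, at lower levels. By the same ratio, 33 members (26.8%) lay between 4 and 5, 21 (17.1%) between 5 and 6, 29 (23.6%) between 6 and 10, 20 (16.3%) between 10 and 20, 10 (8.13%) between 20 and 100, and 10 (8.13%) at 100 or more. Nearly unread members were thus the smaller number. In bulk mycelium, fewer cells of a kind and less RNA per cell cannot be told apart, and how well the sequence of 12-43 matches the gene models was not measured here.

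No name or product could be given to a member. The files name models by number only. The RefSeq gene table used here, for strain H4-8 with assembly Schco3, matched 26 of the 123 members (21.1%), and none of these has a symbol. The members are therefore called by their model numbers, and no role is given to them.

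Model 1211065 had the highest ratio, 508. It held 0.311 and 0.299 RPKM in 12-43, 216 and 200.5 in dhc2, and 158 and 165 in E6, from 5 and 3 reads in 12-43 against 1666 to 3552 elsewhere. Per read of library depth, its 10840 reads in the other 4 libraries against 8 in 12-43 gave a 613-fold ratio, with exact 95% bounds of 311 and 1420 for counting error. The rule set 12-43 apart from the other strains, and the model was picked for its ratio, for which the bounds do not allow. Its dhc2 and E6 values also did not overlap. Model 1291435 resembled it, with 0.124 and 0.297 RPKM in 12-43 (2 and 3 reads), 216 and 198 in dhc2 and 102 and 106 in E6. Its dhc2 values were about 2-fold those of E6, close to the limit of the rule. Model 1316571 leaned the other way, with 0.233 and 0.279 RPKM in 12-43 (4 and 3 reads), 60.7 and 58.2 in dhc2 and 77.4 and 92.5 in E6.

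The other 5 of the 8 members with the highest ratio had a single read in 12-43. Model 1182693 had 1 read in replicate 1 and none in replicate 2, against 336 to 462 elsewhere, with 23.6 and 26.8 RPKM in dhc2 and 29.3 and 25.1 in E6. Its counting interval for the ratio of reads per depth was 132 to 29110 around 736, so the size of the difference is poorly known. Model 1101400 had 1 and 0 reads in 12-43, 12.1 and 12.1 RPKM in dhc2 and 19.0 and 17.3 in E6. Model 1120486 had 1 and 0 reads in 12-43, 38.7 and 42.4 RPKM in dhc2 and 36.7 and 38.6 in E6. For both, 12-43 was at or near the limit of detection. Model 1123458 had 0 and 1 reads in 12-43, 16.2 and 14.7 RPKM in dhc2 and 17.3 and 18.7 in E6. Model 1150101 had 1 and 0 reads in 12-43, 17.2 and 17.1 RPKM in dhc2 and 17.1 and 12.44 in E6. The intervals of these 4 ratios ran from 67.9 at the lowest to 29970 at the highest, and they cover counting error only. Like that of 1182693, they do not allow for the choice of these members by their ratio.

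**Figure D2:**
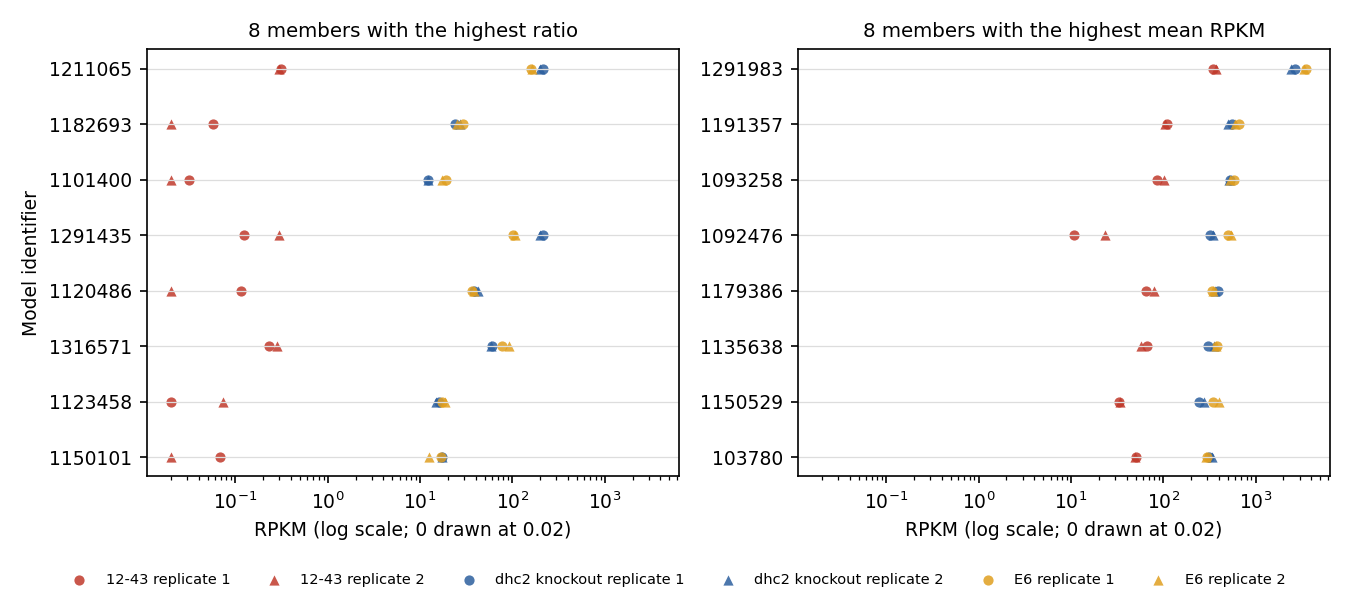
RPKM (log scale, 0 drawn at 0.02) in each library for the 8 members with the highest ratio, left, and the 8 with the highest mean over the dhc2 and E6 libraries, right. On the left the 12-43 values are at most 0.311 RPKM, and on the right they reach 10.8 to 373 RPKM, below every dhc2 and E6 value of the same model.

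The members with the highest levels were read well in 12-43 too. Model 1291983 was by far the highest, with 345 and 373 RPKM in 12-43, 2695 and 2438 in dhc2 and 3469 and 3295 in E6. Its 12-43 values rested on 2007 and 1354 reads, so counting error is small beside its ratio of 6.54. The next was 1191357, with 108 and 105 RPKM in 12-43, 554 and 496 in dhc2 and 656 and 595 in E6. Model 1093258 followed with 84.7 and 101 RPKM in 12-43, 524 and 508 in dhc2 and 586 and 532 in E6. In these 3 members both groups were tight next to the step of 4.58 to 6.54 between them.

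Model 1092476 held 10.8 and 23.1 RPKM in 12-43, 318 and 342 in dhc2 and 505 and 541 in E6. Its 12-43 replicates were more than 2-fold apart, at 81 and 108 reads, yet both stayed at least 13.8-fold under the lowest other library. Model 1150529 held 33.1 and 33.9 RPKM in 12-43, 241 and 273 in dhc2 and 349 and 397 in E6. Model 1135638 held 67.0 and 57.6 RPKM in 12-43, 308 and 352 in dhc2 and 384 and 369 in E6. In all 3 the E6 libraries lay above the dhc2 libraries. Models 1179386 and 103780 showed no such order of E6 over dhc2. The former held 65.1 and 78.5 RPKM in 12-43, 387 and 363 in dhc2 and 333 and 346 in E6. The latter held 50.7 and 48.8 RPKM in 12-43, 314 and 338 in dhc2 and 299 and 291 in E6.

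The replicates of 12-43 gave like values for most members. Of the 113 members with a read in both, the median fold of replicate 2 over replicate 1 was 1.01, with a range of 0.134 to 3.48. They were more than 2-fold apart in 9 members, 4 of which had at least 10 reads in each library. Besides 1092476 these were 37272 at 7.81 and 27.2 RPKM, 1210933 at 2.81 and 6.61 and 1224174 at 21.8 and 44.1. These 4 were higher in replicate 2, and of the other 5, which had fewer than 10 reads in at least 1 library, 4 were higher in replicate 1. The 4 with more reads were named after their values were seen.

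Around the threshold of 4 the values were continuous. Model 1092983 was just inside at a ratio of 4.04, with 21.5 and 20.6 RPKM in 12-43 against 86.8 to 108 elsewhere, followed by 1152386 at 4.06 and 1195276 at 4.10. Model 1180084 was just outside at 3.97, with 4.99 and 4.29 RPKM in 12-43 against 19.8 to 29.5 elsewhere, followed by 1090802 at 3.91 and 1291578 at 3.81. Further, 7 models met every condition but had no read in either 12-43 library and were left out by the rule: 1037814, 1063678, 1089913, 1156909, 1203041, 1291777 and 1321565. Their dhc2 and E6 values ran from 10.7 to 42.5 RPKM, within the range of the members.

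The rule let dhc2 and E6 differ by up to 2-fold. Within that limit limma at an adjusted p under 0.05 called 58 of the 123 members (47.2%), beside 62.7% of all 12484 models tested, with 31 higher in dhc2 and 27 higher in E6. Of the 5850 other models at 10 RPKM or more in these 4 libraries and within the same window 55.7% were called. The median log2 difference, dhc2 minus E6, was -0.02 among the members, and its median size was 0.34 against 0.36 among those other models. The share with no overlap between the dhc2 and E6 libraries was 78.9% among the members, beside 84.5% over all models and 82.9% in the window. In this fit the members' share called was thus under that of other models the window admits. The fit takes the spread from all 3 groups, 12-43 among them. With only dhc2 and E6 fitted, 68 of the 123 members and 8237 of 12336 models were called. No trait of the members is read from these shares. Without 1 of the dhc2 or E6 libraries fewer members and fewer window models were called, and the members' share stayed the lower. With the GAAGA library group as a covariate 35 members (28.5%) were called. In that fit the share was 26.1% of the window models outside the members and 38.1% of all 12484 models tested. Both dhc2 libraries list GAAGA and neither E6 library does. The covariate is thus set by the 12-43 libraries alone, and that fit cannot tell strain from library group between dhc2 and E6. Which strain held more of the higher members depended on the scaling, since 31 were higher in dhc2 and 27 in E6 as reported, 35 and 17 without scaling and 25 and 30 with upper quartile scaling.

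**Figure D3:**
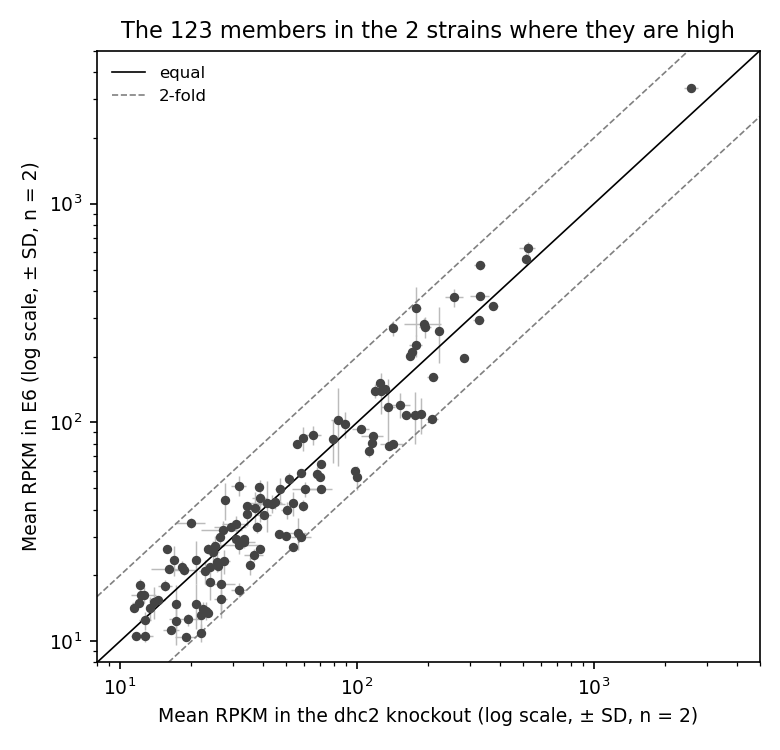
Mean RPKM of each of the 123 members in dhc2 against E6 (log scales, bars ± SD, n = 2), with lines for equal values and for 2-fold. The points lie on both sides of the line of equality, 65 of them higher in dhc2, and close to or inside the 2-fold lines, since the rule set its limit on means plus 0.5 RPKM.

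In the scaled limma values the member with the largest difference between these strains was 1210933, with 140 and 144 RPKM in dhc2 and 254 and 284 in E6, a log2 difference of -1.01 (limma adjusted p = 0.029). Model 1151025 held 183 and 173 RPKM in dhc2 and 274 and 394 in E6, a log2 difference of -0.98 (limma adjusted p = 0.0033). On the other side, 1291435, given above, differed by 0.90 (limma adjusted p = 0.0014). Model 1211074, the longest member at 6000 bases of coding length, held 21.5 and 22.6 RPKM in dhc2 and 11.7 and 10.2 in E6, a log2 difference of 0.89 (limma adjusted p = 0.0015). On unscaled RPKM 1211074 had the largest fold, 2.02 in means. Of these 4, those other than 1291435 were named after their values were seen.

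The members were about as long as other models. Their coding lengths had a median of 1029 bases and quartiles of 692 and 1491, against 1098, 669 and 1671 among the 7194 models at 10 RPKM or more. The shortest was 1174320 at 192 bases, with 5.56 and 3.56 RPKM in 12-43, 216 and 168 in dhc2 and 295 and 271 in E6.

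The position of the models was not used by the rule. The gene table matched 3636 of the 14652 models (24.8%), and 26 of the 123 members (21.1%). Because under 80% of the members have a place, a check of position over all members is void, and what follows describes the 26 placed members alone. The coding length solved from the RPKM was within the span of the matched gene for all 26. The table lists genes along 25 sequences, numbered here in its order, and its gene order is that of strain H4-8 and may differ in the strains studied.

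Of the 26 placed members, 12 (46.2%) lay on sequence 3, which holds 8.20% of the placed models at 10 RPKM or more in the dhc2 and E6 libraries. Sequence 4 held 4 (1120486, 53710, 54220 and 1348554), sequence 8 held 3 (236234, 1202491 and 39094) and sequence 9 held 2 (1321657 and 236316). Sequences 2, 7, 10, 11 and 12 held 1 each, and sequences 1, 5 and 6, which hold 14.0%, 12.9% and 6.20% of those models, held none. The 12 members on sequence 3 lay between the 401st and the 872nd of its 1397 genes.

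In the order of the genes, the 12 on sequence 3 were 256423, 1212072, 1123209, 1123248, 1291440, 1056904, 233414, 1093258, 53029, 1180445, 1170770 and 1151025. The first, 256423, held 9.67 and 10.1 RPKM in 12-43, 87.0 and 79.5 in dhc2 and 74.7 and 131 in E6. Its neighbour 5 genes on, 1212072, held 5.00 and 6.04 RPKM in 12-43, 110.2 and 114 in dhc2 and 76.6 and 70.7 in E6. The 12-43 means in this stretch ran from 0.144 RPKM in 1291440 to 92.8 in 1093258, short of both ends of the members' range. Model 1123209 held 1.92 and 2.05 RPKM in 12-43, 15.2 and 13.6 in dhc2 and 14.95 and 15.95 in E6. Model 1123248 held 3.16 and 3.61 RPKM in 12-43, 53.2 and 53.9 in dhc2 and 27.4 and 26.8 in E6. The next members, 1291440 and 1056904, 5 genes apart, were barely read in 12-43.

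Model 1291440 had 0 and 1 reads in 12-43, with 23.9 and 29.5 RPKM in dhc2 and 22.2 and 14.4 in E6. Model 1056904 had 0 and 4 reads in 12-43, with 17.0 and 21.5 RPKM in dhc2 and 13.1 and 12.0 in E6. Both are short, at 396 and 339 bases of coding length, and their 12-43 values are at or near the limit of detection. Model 233414 was read 202 and 139 times in 12-43, at 13.3 and 14.7 RPKM, against 189 and 184 in dhc2 and 94.9 and 123 in E6. Model 1170770 held 32.5 and 30.3 RPKM in 12-43, 184 and 169 in dhc2 and 243 and 208 in E6. Model 1151025, last in the stretch, held 28.5 and 34.9 RPKM in 12-43. The difference between dhc2 and E6 thus took both directions along the stretch.

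Models that are not members could be read beside them, since the rule did not choose them. The boundaries of the stretch were set by the members, after their places were seen. Of the 76 other tested models from the 401st to the 872nd gene of sequence 3, 26 (34.2%) were 2-fold or more lower in 12-43 than in dhc2 and in E6, each at a limma adjusted p under 0.05, and 4 (5.26%) were higher than both. On the rest of sequence 3 the first share was 13 of 143 (9.09%), and among all placed models outside the stretch, members left out, 125 of 2887 (4.33%) were lower and 124 (4.30%) higher. The median log2 difference from 12-43 of the 76 models was 1.27 in dhc2 and 0.74 in E6, against -0.04 and -0.02 outside. Counting both directions together, dhc2 and E6 differed by 2-fold or more in 28.9% of these models inside the stretch and 28.1% outside. This was again at a limma adjusted p under 0.05. These shares do not show direction, and by the medians above dhc2 lay further above 12-43 inside the stretch than E6 did. The lower reads in 12-43 thus extended to models that are not members, while 4 of the 76 went the other way.

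**Figure D4:**
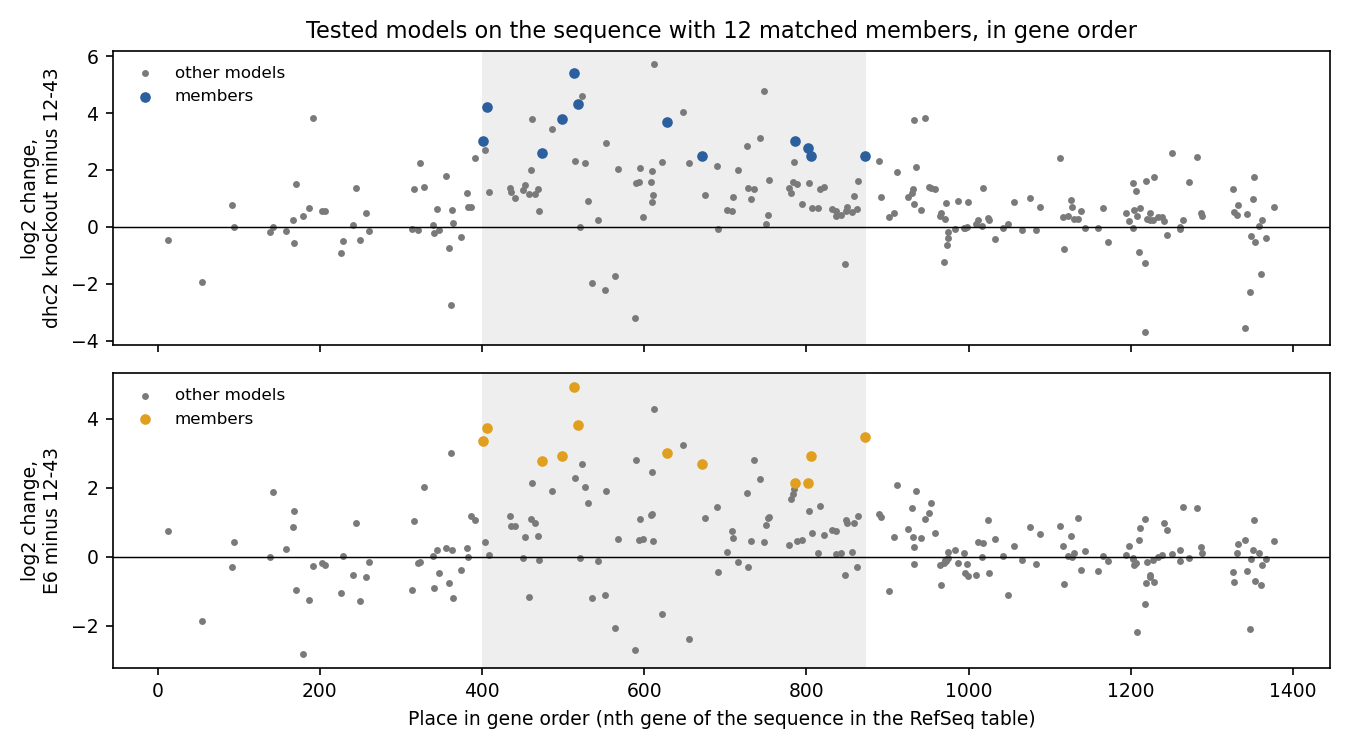
Log2 difference from 12-43 of each tested model on sequence 3 by its place in gene order, for dhc2, top, and E6, bottom, with members in colour and the stretch from the 401st to the 872nd gene shaded. Most other models in the stretch lie above 0, with medians of 1.27 and 0.74, against 0.36 and 0.01 on the rest of the sequence, where models just past the stretch also lie above 0.

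Of those 26 lower models, 10 had less than 10 RPKM in a dhc2 or E6 library and 15 of the other 16 had a ratio under 4. Model 1150513 was the exception, with 0.175 and 0.183 RPKM in 12-43, 34.1 and 37.7 in dhc2 and 12.5 and 11.9 in E6, and it lay outside the 2-fold window. Just under the ratio that the rule required, 14899 held 31.7 and 45.1 RPKM in 12-43, 342 and 324 in dhc2 and 167 and 176 in E6. Model 75240 held 16.1 and 16.8 RPKM in 12-43, 80.7 and 77.8 in dhc2 and 60.1 and 67.3 in E6. Like the members, all 3 had both 12-43 libraries under every dhc2 and E6 library. They were named after their values were seen.

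In windows of 50 genes along sequence 3, the share of tested models lower in 12-43, members left out, was 16.7% to 57.1% in each window from the 401st to the 950th gene, with 4 to 12 tested models in each. It thus went on past the last member, to 36.4% from the 901st to the 950th gene and 11.8% from the 951st to the 1000th. Before the first member it was 22.2% from the 301st to the 350th gene and 10% from the 351st to the 400th. In each window from the 1001st to the 1250th gene it was 0. Across the table, 301 windows had at least 5 such models, 211 of them held none that was lower and 15 held 30% or more. Of these 15, 7 lay on sequence 3, 5 on sequence 4, 2 on sequence 8 and 1 on sequence 13, and 8 of the 15 also held a member. On sequence 4 the windows of the first 150 genes held 33.3%, 20% and 66.7%, and 3 of its 4 members lay there.

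Some members off sequence 3 also lay near other lower models. Of the windows of 50 genes, those with the members of sequences 2, 7 and 12 held no other lower model. On sequence 8 the windows with 236234 and 39094 held none either, and that with 1202491 held 3 of 5. Each window with a member on sequences 4, 9, 10 and 11 held at least 1. Within 25 genes on either side of the 14 members on other sequences, 19 of 105 other tested models (18.1%) were lower in 12-43 than both strains and 4 (3.81%) were higher, each other model counted once. Around the 12 members on sequence 3 the count was 21 of 54 (38.9%), and over all placed models that are not members it was 151 of 2963 (5.10%). By sequence, again without the members, the share lower in 12-43 was 39 of 219 (17.8%) on sequence 3, 23 of 216 (10.6%) on sequence 4 and at most 8.47% on each other.

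**Figure D5:**
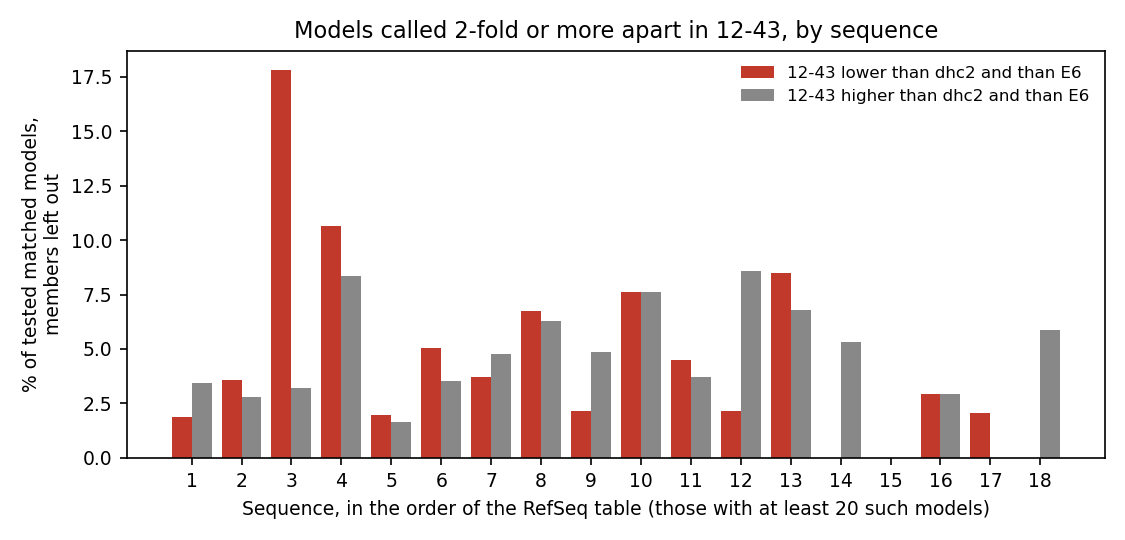
Share of tested placed models, members left out, called 2-fold or more lower, red, or higher, grey, in 12-43 than in both other strains, for each sequence of the gene table with at least 20 such models. Sequence 3 stands highest for lower models at 17.8% and sequence 4 next at 10.6%, while higher models stay under 9% on all.

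The model numbers gave a second view that includes unplaced members. Numbers follow the genome in part: of 1965 pairs of placed models next in number and within 50 of each other, 1726 (87.8%) lay on the same sequence, a median of 35 genes apart. Of the 123 members, 39 (31.7%) had another member within 50 numbers, against 313 of the 7071 other models at 10 RPKM or more (4.43%). Models 1212181 and 1212182 have consecutive numbers. The former held 5.38 and 4.41 RPKM in 12-43, 57.7 and 60.4 in dhc2 and 39.9 and 43.3 in E6. The latter held 11.5 and 11.5 RPKM in 12-43, 130.1 and 152 in dhc2 and 80.1 and 79.4 in E6. In both, dhc2 lay above E6 and E6 above 12-43.

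Some ranges of numbers were rich in members. From 1123000 to 1123999, 8 of 39 models at 10 RPKM or more were members (20.5%), and from 1092000 to 1092999, 5 of 23 (21.7%). From 1211000 to 1211999 it was 7 of 51 (13.7%) and from 1150000 to 1150999, 6 of 58 (10.3%), against 1.71% of all such models. Among the 8 from 1123000 on, 1123209 and 1123248 are placed on the stretch of sequence 3, and the other 6 are unplaced. Those 6 ranged from 1123458, with 1 read in 12-43, to 1123120, with 15.8 and 11.3 RPKM in 12-43, 136 and 137 in dhc2 and 75.7 and 80.0 in E6. Near-identical neighbours can share reads, and how such reads were counted is not given in the sources used here, so values of closely numbered members are uncertain to that extent.

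None of the 39 matched models with a symbol is a member. The closest was Hyd3, a hydrophobin gene, with a ratio of 2.53 at 0.208 and 0.333 RPKM in 12-43 and 0.844 to 1.27 elsewhere, 1 to 6 reads each. Of 9 tested hydrophobin genes, 0 passed as lower and 5 as higher in 12-43 than in both other strains. Of 13 tested B mating-type genes, 1 was lower and 1 higher, of 8 fruiting-body regulators 0 were lower and 0 higher, and of 2 laccase genes 1 was lower, all at a limma adjusted p under 0.05 against each strain with no limit on size. The latter was Lcc1, a laccase gene, with 0.439 and 0.422 RPKM in 12-43, 0.902 and 1.11 in dhc2 and 5.76 and 6.40 in E6. The share of all tested models passing against each strain with no limit on size was not counted. No trait is therefore read from these list counts. The regulator gene Fst4, at the 996th gene of sequence 3, held 67.0 and 58.2 RPKM in 12-43, 62.3 and 59.0 in dhc2 and 40.4 and 42.7 in E6, so that 12-43 and dhc2 overlapped there.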

How the data were processed

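The authors deposited RPKM for 14652 gene models in each of 6 libraries, per the file headers, with decimal commas and followed by a FastQC 0.9.2 report. Per the submitters' processing notes TopHat, DESeq and edgeR were used, with no role or version. The sources used here do not state aligner settings, strand use, build or annotation. Reads were sequenced as 50-base single reads, per the labels' protocols.

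Whole reads, coding lengths and the read total behind each library were solved from the RPKM steps, which was tested on simulated data and gave whole reads for 13715 of 13715 models above 0. The reads solved were 98.5% to 99.8% of the solved totals, which were 46.0% to 58.7% of the raw reads. They are the smallest whole numbers that serve, and they were used for intervals (exact, 95%), for a filter and in an alternative. The main test was limma 3.58.1 in R 4.3.3 with an intensity trend on log2(RPKM + 0.5), with trimmed-mean scaling factors of 0.957 to 1.06, all 3 groups fitted together (3 residual degrees of freedom), and Benjamini-Hochberg adjusted p under 0.05. It was tested on simulated data. A model entered with at least 0.744 CPM (10 reads at the median depth) in 2 libraries and 15 reads in all, which 12484 models did, including all 123 members. The fold changes understate those of low models.

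The members, gene lists and tests were chosen with earlier results of these data known. Named genes were the 8 members with the highest ratio, the 8 with the highest mean, the 3 models on each side of the ratio threshold, members with a symbol or product, members on a list and neighbouring members. The gene table gave no products, so no member had a name, 14 lists defined by product found no gene, and motifs and sequences were not used here. No 2 placed members were adjacent. Model numbers were matched to locus tags of RefSeq (assembly Schco3), for names and gene order only.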

Additional observations from a re-analysis of the deposited data

How the results depend on the processing

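The number of members was 123. It was 172 at a ratio of 3 and 69 at a ratio of 6. With a floor of 5 RPKM it was 145 and with 20 RPKM 88, and a window of 3-fold gave 136 and of 1.5-fold 93. Leaving out 1 library gave 123 to 137, but that can only ease the floor and the ratio, so it hardly tests the number. Of the models called, dhc2 against E6 went from 7833 to 4756 with the GAAGA library group as a covariate, and the members called from 58 to 35. As that covariate is set by the 12-43 libraries alone, these counts cannot tell strain from library group between dhc2 and E6. Leaving out 1 library gave 4820 to 6766 models for dhc2 against 12-43, 6100 to 7184 for E6 against 12-43, 5882 to 8227 for dhc2 against E6 and 27 to 64 members, where a lone library is assumed to vary like the other groups. The cause was not tested, beyond the fewer libraries. The share of other models lower in 12-43, an outcome whose alternatives were chosen after seeing the data, was 27.6% to 38.2% in the stretch of sequence 3 (34.2% as reported) and 2.87% to 5.40% outside it (4.33%), the 2.87% with a pseudocount of 2. Leaving out 1 library gave 31.6% to 35.1% inside and 4.25% to 4.77% outside.

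Replicate numbers did not pair the libraries, as deviations of same-numbered libraries correlated at -0.00136 to 0.0255. A replicate block gave 6569, 7214 and 7645 models for these 3 comparisons, 54 members, and 34.2% and 4.40% for those shares. There were 2 libraries a group and 3 residual degrees of freedom. The 12-43 spread was 0.356 (SD of the log2 difference between replicates), against 0.217 in dhc2 and 0.296 in E6. Depth limits most the 12 members with at most 3 reads in each 12-43 library. It also limits others, as 94 of the 123 members had at least 10 reads in each 12-43 library.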
